A study of Mus musculus with 9 samples.

Results

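The 2 mature arms of the miR-139 hairpin, mmu-miR-139-5p and mmu-miR-139-3p, and the 5p arm of miR-149, mmu-miR-149-5p, are 3 of the 1101 mature mouse miRNAs listed in small RNA libraries of macrophage exosomes. They were chosen from the measured values, for a level that stood highest after 24 h of silica and no longer did after 48 h. Their levels in the 3 groups are therefore given as a description. Tests fitted across all miRNAs are given for the whole table, and whether they called one of the 3 is printed beside them with nothing read from it. All 3 were listed in all 9 libraries and passed the filter on low counts.

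Exosomes are vesicles shed by cells into the culture medium, and inhaled silica dust is the cause of the lung disease silicosis. Here they were collected by ultracentrifugation from RAW264.7, a line of mouse macrophages, grown with fetal bovine serum. The groups were cells with silica for 24 h, cells with silica for 48 h and untreated cells, with 3 libraries each. The sources used here give neither the silica dose nor how long the untreated cells were cultured. Every group is the same cell line, and the labels call the 3 libraries of a group independent repetitions without naming separate cultures.

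A miRNA hairpin is cut by Dicer into a duplex, and usually 1 arm, the guide, is kept in an Argonaute protein while the other, the passenger, is degraded. The guide finds mRNAs by pairing of its seed, bases 2 to 8 from the 5′ end. In human tumour cells miR-139-5p is known for restraining growth and migration, with the chemokine receptor CXCR4 and the kinase ROCK2 among its targets. In macrophages miR-149-5p is known as a brake on Toll-like receptor signalling through the adaptor MyD88.

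The sequences show that the 3 miRNAs carry 3 unrelated seeds, so that they are grouped here by profile and not by target family. They are from RefSeq on GRCm38.p6, the build also called mm10, in the 5′ to 3′ direction with the seed in capitals. The last one is the opposite arm of miR-149, shown because it was almost absent.

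miR-139-5p: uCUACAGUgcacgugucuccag

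miR-139-3p: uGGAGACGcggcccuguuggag

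miR-149-5p: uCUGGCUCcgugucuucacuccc

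miR-149-3p: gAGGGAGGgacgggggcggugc

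None of the other mature miRNAs among the 1679 names in the RefSeq table had the same bases 2 to 8 as miR-139-5p, miR-139-3p or miR-149-5p. The seed of miR-149-3p was shared by 3 others (miR-1943-5p, miR-6967-5p and miR-7016-5p), with 201, 121 and 21 counts over the 9 libraries. The GC content was 54.5% in miR-139-5p, 68.2% in miR-139-3p, 60.9% in miR-149-5p and 81.8% in miR-149-3p.

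Both hairpins lie in introns of protein-coding genes, on the same strand as the host. Mir139 lies at chr7:101475376-101475443 (mm10, + strand) in intron 2 of the 30 introns of Pde2a-201. Its host Pde2a encodes a phosphodiesterase that breaks down cyclic nucleotides. Mir149 lies at chr1:92850378-92850443 (mm10, + strand) in intron 1 of the 8 introns of Gpc1-201. Its host Gpc1 encodes glypican-1, a heparan sulfate proteoglycan of the cell surface. Neither hairpin overlapped an annotated exon of its host in GENCODE release M21, and host mRNA was not measured. The hairpins are printed with the mature arms in capitals, because the shares of the arms of miR-139 differed between libraries.

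Mir139: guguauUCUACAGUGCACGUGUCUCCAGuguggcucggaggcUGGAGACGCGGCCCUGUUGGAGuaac

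Mir149: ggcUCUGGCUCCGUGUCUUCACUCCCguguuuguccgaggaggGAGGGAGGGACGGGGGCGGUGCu

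Mature miRNAs had 2158418 to 8331451 reads per library, which was 28.01% to 44.7% of all that were counted. Levels are counts per 1000000 mature miRNA reads (CPM) scaled by TMM, edgeR's correction for differences in composition. A count of 3 corresponds to 0.36 to 1.39 CPM before that scaling. Of the 6 myeloid marker miRNAs written down for this cell line, such as miR-223-3p and miR-142a-3p, all 6 were listed. Their summed level was 70806 to 82837 CPM at 24 h, 85607 to 107348 CPM at 48 h and 75494 to 105025 CPM in untreated, most of it from miR-146a-5p and miR-21a-5p, which many cell types hold. The haematopoietic markers were far lower, with means over the 9 libraries of 126 CPM for miR-223-3p and 74.2 CPM for miR-142a-3p. The 24 h library 3 held the fewest mature reads and listed the fewest mature miRNAs, 486.

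miR-139-5p was the most abundant of the 3. Its level was 19276, 11272 and 18844 CPM in the 24 h libraries 1, 2 and 3, against 578, 3220 and 5783 CPM in the 48 h libraries and 5639, 2513 and 3565 CPM in the untreated ones. All 24 h libraries lay above all 6 others, and the lowest of them was 1.95-fold of the highest other library. The 48 h and untreated ranges overlapped, and the 48 h library 1 lay far below every other library. As group means, miR-139-5p stood at 16464 ± 4502 CPM at 24 h, 3193 ± 2603 CPM at 48 h and 3906 ± 1590 CPM in untreated (SD, n = 3 each). It ranked 16 to 21 among all mature miRNAs of a library at 24 h, 33 to 68 at 48 h and 32 to 43 in untreated. It took 1.86%, 1.27% and 1.68% of mature reads in the 24 h libraries, against 0.530%, 0.292% and 0.356% in the untreated ones.

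miR-139-3p, the other arm of the same hairpin, also stood highest at 24 h, with a smaller span. It was counted at 3824, 3737 and 4547 CPM in the 24 h libraries, against 2737, 1358 and 2072 CPM in the 48 h libraries and 2653, 1503 and 1691 CPM in the untreated ones. The 24 h libraries again lay above the other 6, the lowest at 1.37-fold of the highest other. That highest other was the 48 h library 1, the library in which the 5p arm was lowest. The group means were 4036 ± 445 CPM at 24 h, 2056 ± 690 CPM at 48 h and 1949 ± 617 CPM in untreated (SD, n = 3 each), so that 48 h and untreated differed by less than their spread. The spread at 24 h was 11.02% of the mean, against 27.3% for the 5p arm.

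miR-149-5p was scarce. For each 100 counts of miR-139-5p it had 6.60 counts in the 48 h library 1, where miR-139-5p was low, and 0.524 to 1.03 in the other 8 libraries. Its level was 161, 85.7 and 116 CPM in the 24 h libraries, against 38.1, 16.9 and 42.4 CPM in the 48 h libraries and 38.9, 17.1 and 36.6 CPM in the untreated ones. The lowest 24 h library stood at 2.02-fold of the highest other library. In all 3 groups library 2 was the lowest, and the 48 h and untreated groups could not be told apart by range. The underlying counts were 625, 517 and 224 at 24 h, 132, 161 and 184 at 48 h and 209, 100 and 161 in untreated, all well above 3 counts. That mark was set here, since mature miRNAs were listed from a count of 1. The means were 121 ± 38.1 CPM at 24 h, 32.5 ± 13.7 CPM at 48 h and 30.8 ± 11.99 CPM in untreated (SD, n = 3 each).

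**Figure D1:**
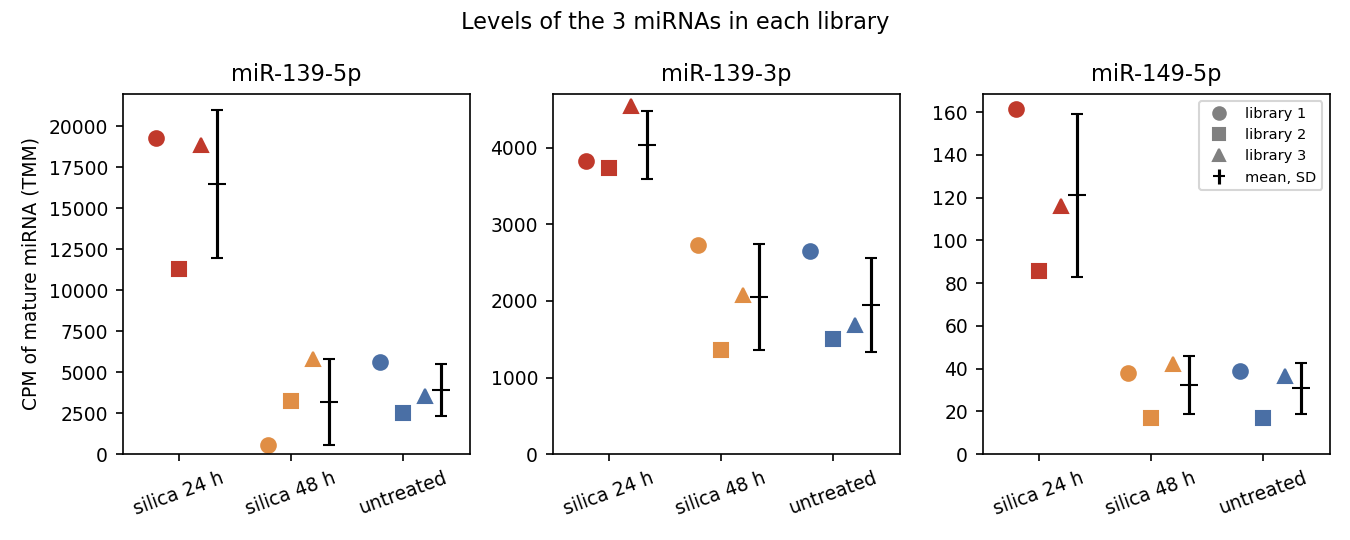
CPM of mature miRNA, TMM-scaled, in each library (y axis, linear from 0, separate scale per panel) for miR-139-5p, miR-139-3p and miR-149-5p. Points are libraries, with the shape giving the library number, and black bars are the group mean with SD (n = 3); in each panel the 3 libraries of 24 h lie above the other 6, and in the first panel the 48 h library 1 lies lowest, at 578 CPM.

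The opposite arm of miR-149 was counted 2 times over the 9 libraries, once each in the 48 h libraries 2 and 3, against 2313 counts of miR-149-5p. This is 0.0864% of the counts of the hairpin (exact 95% binomial interval 0.0105% to 0.312%, which covers counting error only). It had 0 counts in all 24 h and all untreated libraries, which at the depth of those libraries allows up to 0.525 to 1.39 CPM before TMM scaling. No direction can be given for it at this depth.

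In the fit across all miRNAs, miR-139-5p stood at 4.22-fold of the untreated level at 24 h, with a log2 fold change of 2.08 ± 0.69 (SE, here and in what follows). For miR-149-5p the ratio was 3.92-fold (log2 fold change 1.97 ± 0.60) and for miR-139-3p 2.07-fold (1.05 ± 0.45). The SE was computed back from edgeR's test, as the size of the log2 fold change over the square root of its F statistic. Over the 453 miRNAs tested, the quasi-likelihood test of edgeR called 0 at an adjusted p of 0.05 (Benjamini-Hochberg), which is 0%, and with it 0 of the 3. Before adjustment, 46 of the 453 had a p under 0.05. DESeq2 called 4 and limma-voom 0 of all miRNAs, none of them among the 3. With the replicate number as a block edgeR called 3, also none of them among the 3. A larger positive log2 fold change than that of miR-139-5p was fitted for 18 miRNAs, than that of miR-149-5p for 20 and than that of miR-139-3p for 76. The groups did not overlap, with 24 h higher, for 47 of the 453 (10.4%), and the 3 are among those by the way they were chosen.

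After 48 h the ranges of all 3 overlapped those of untreated. The log2 fold change was -0.29 ± 0.66 for miR-139-5p, 0.08 ± 0.45 for miR-139-3p and 0.07 ± 0.58 for miR-149-5p, each smaller than its SE with all 9 libraries. These values share the untreated libraries with the comparison at 24 h. The value of miR-139-5p moved with single libraries. It was 0.23 without the 48 h library 1 and 0.08 without the untreated library 1, while without the 48 h library 3 it was -0.999 ± 0.72, which is more than its SE. In this comparison edgeR called 0 of 453 miRNAs (0%), 4 had a p under 0.05 before adjustment, and DESeq2 called 1, which was not among the 3.

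Between the exposures the 3 stood lower at 48 h than at 24 h. The log2 fold change of 48 h over 24 h was -2.37 ± 0.70 for miR-139-5p, -1.90 ± 0.60 for miR-149-5p and -0.97 ± 0.45 for miR-139-3p. For miR-139-5p the value was -1.79 without the 48 h library 1 and -3.004 without the 48 h library 3, and for miR-149-5p it was -1.96 and -2.20. Again edgeR called 0 of 453 (0%), 44 had a p under 0.05 before adjustment, and DESeq2 called 6, with 0 of the 3 among them. The groups did not overlap, with 48 h lower, for 47 of 453 miRNAs (10.4%).

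**Figure D2:**
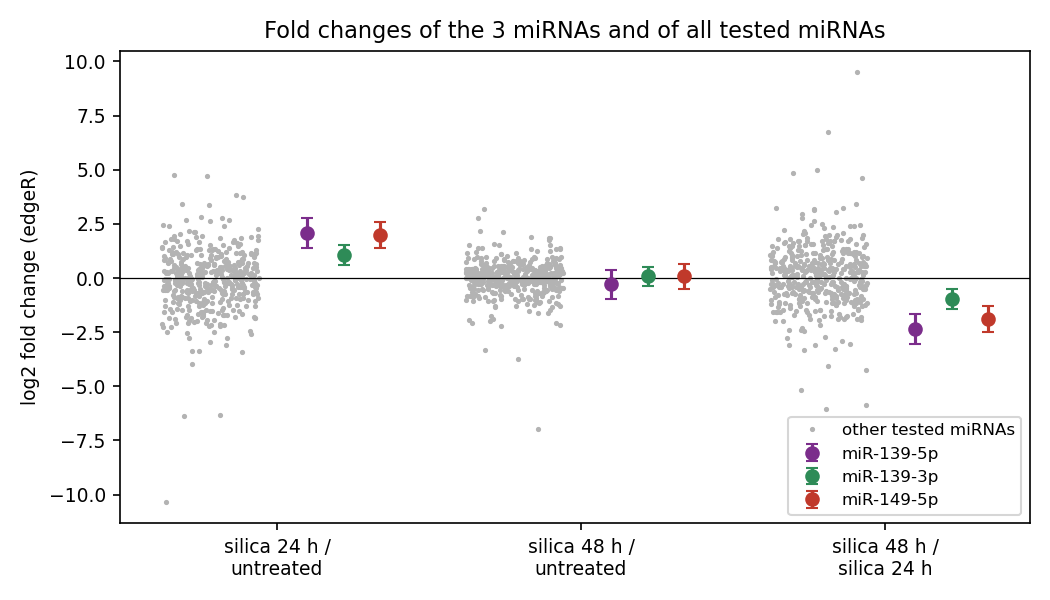
Log2 fold change from edgeR (y axis) in the 3 comparisons for miR-139-5p, miR-139-3p and miR-149-5p (coloured points, bars are the SE) beside the other tested miRNAs (grey points, spread sideways at random). The coloured points lie at 2.08, 1.05 and 1.97 at 24 h over untreated, near 0 at 48 h over untreated, and at -2.37, -0.97 and -1.90 at 48 h over 24 h, within the range of the grey points.

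Ratios between libraries with the same number are given as a description, since the labels state no pairing. All 24 h libraries lay above all untreated ones for the 3, so every such pair had to have 24 h higher. For miR-139-5p the 24 h library stood at 3.42-fold, 4.48-fold and 5.29-fold of the untreated library with the numbers 1, 2 and 3. For miR-149-5p the ratios were 4.15, 5.02 and 3.18, and for miR-139-3p 1.44, 2.49 and 2.69. At 48 h over untreated the same ratios were 0.102, 1.28 and 1.62 for miR-139-5p, so that library 1 went the other way from libraries 2 and 3. For miR-149-5p they were 0.980, 0.988 and 1.16.

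The peak shape itself was not rare. All 24 h libraries lay above all 6 others for 24 of the 453 tested miRNAs (5.3%), miR-139-5p, miR-139-3p and miR-149-5p included. By the ratio of the lowest 24 h library to the highest other one, miR-149-5p and miR-139-5p led the 24. They were chosen for this peak, so their lead is no separate result. miR-139-3p, at 1.37-fold, stood behind others that were not chosen, such as miR-191-3p at 1.66-fold. Just inside lay miR-423-3p, with a lowest 24 h level of 5924 CPM and a highest other level of 5907 CPM. Just outside lay miR-122-5p, with 1252 and 1295 CPM. By mean level at 24 h miR-139-5p was the most abundant of the 24 and miR-139-3p the third, with miR-423-3p between them at 7241 CPM. Leaving out the untreated library 2 and the 48 h library 2, the pair of libraries with the highest Pearson's r of log2 CPM (0.969), 40 miRNAs had this shape, and the 3 were again among them. With fewer libraries to lie above, the shape is easier to meet, so this adds nothing about the 3.

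The 2 arms of miR-139 did not keep a fixed ratio. The 5p arm took 83.4%, 75.1% and 80.6% of miR-139 counts in the 24 h libraries, against 17.4%, 70.3% and 73.6% in the 48 h libraries and 68.01%, 62.6% and 67.8% in the untreated ones. Exact 95% binomial intervals were at most 0.707 percentage points to either side and cover counting error only. The 24 h libraries held the highest shares, with a mean of 79.7% ± 4.24, against 53.8% ± 31.5 at 48 h and 66.1% ± 3.08 in untreated (SD, n = 3 each). Without the 48 h library 1 the 48 h mean was 72.0%. Among 54 hairpins with both arms at a mean of at least 100 counts, the ratio of 5p to 3p at 24 h lay above all 6 other libraries for 4 (7.41%). Of the 54, 25 had a larger shift of the log2 ratio between 24 h and untreated, in either direction, than the 1.02 of miR-139.

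In the 48 h library 1 the order of the arms of miR-139 was reversed. It held 1999 counts of miR-139-5p and 9473 of miR-139-3p, which is 4.74 counts of 3p for each of 5p. In the other 8 libraries the 5p arm was the more abundant one, at 1.67 to 5.04 counts for each of 3p. The log2 ratio of 5p to 3p in that library was -2.24, against a median of 1.36 and a lowest value of 0.74 in the other 8. Among the 54 hairpins this was the third largest departure from the median of the other libraries, after miR-326 (-4.88) and miR-25 (-3.98), both also with less of the 5p arm. The next in size, miR-532 (3.38), miR-183 (3.37) and miR-339 (3.12), went the other way, with more of the 5p arm. Counted at any distance, the 48 h library 1 lay outside the range of the other 8 libraries for 13 of the 54 hairpins (24.1%). Over the 9 libraries this count ran from 2 to 22. Every hairpin has a highest and a lowest library, so the average of this count is fixed. It does not tell how common a departure as large as that of miR-139 was.

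**Figure D3:**
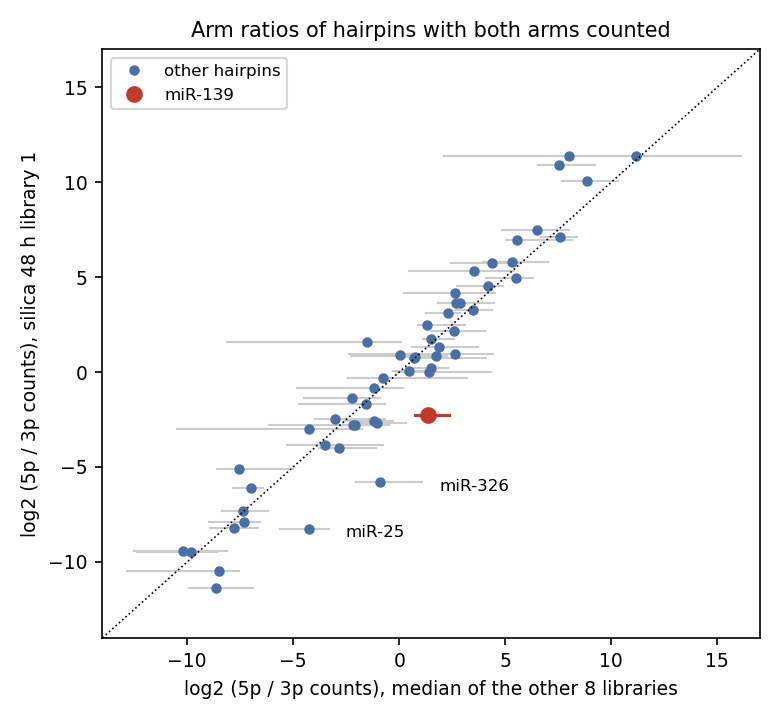
Log2 ratio of 5p to 3p counts for 54 hairpins in the 48 h library 1 (y axis) against the median of the other 8 libraries (x axis); grey and red lines span the lowest to highest of those 8, and the dotted line marks equal values. miR-139 (red) lies at -2.24 on the y axis against a median of 1.36, below the line together with miR-326 and miR-25.

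Reads assigned to the Rfam precursor family of mir-139 are counted in a separate row from the mature arms. Their level, per 1000000 of all counted reads (RPM), was 229, 297 and 173 RPM in the 24 h libraries, against 90.5, 75.2 and 185 RPM in the 48 h libraries and 163, 105 and 101 RPM in the untreated ones. The 24 h libraries lay above the untreated ones, as they did in CPM for 47 of the 453 tested mature miRNAs (10.4%). That share is on another scale and another class of rows, and none was computed over the precursor rows in RPM. The 48 h library 3 lay above the lowest 24 h library. Per 100 mature miR-139 counts there were 3.49 ± 1.08 precursor reads at 24 h, 6.15 ± 2.91 at 48 h and 5.62 ± 0.78 in untreated (SD, n = 3 each). These values come from the same hairpin and the same libraries as the mature counts and add no independent sample. No precursor row named mir-149.

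**Figure D4:**
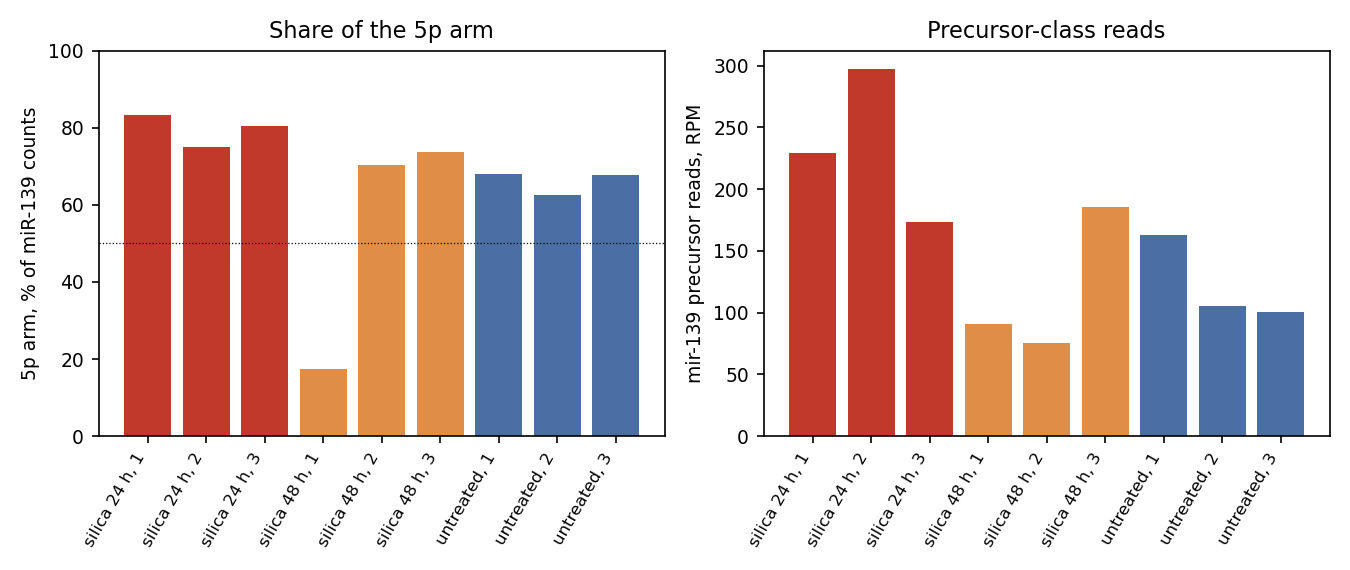
Left, share of miR-139 counts on the 5p arm (y axis, percent, dotted line at equal shares) in each library; right, reads of the Rfam mir-139 precursor family (y axis, RPM of all counted reads). Bars are single libraries; the 48 h library 1 has a 5p share of 17.4% where the other 8 have 62.6% to 83.4%, and the precursor bars of 24 h run from 173 to 297 RPM.

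For miR-149-5p, 4 other miRNAs in the RefSeq table share bases 2 to 7 but not base 8, and of these only miR-3064-5p passed the filter. It was chosen for a closer description after its values were seen, since it also had the peak at 24 h. The shared bases 2 to 7 are in capitals.

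miR-149-5p: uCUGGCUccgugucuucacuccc

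miR-3064-5p: uCUGGCUguuguggugugcaaa

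Beyond these bases the sequences are unlike each other, and miR-3064-5p lies on another chromosome, at chr11:106782736-106782757 (mm10, - strand). It stood at 12.7 ± 5.53 CPM at 24 h, 5.41 ± 2.33 CPM at 48 h and 5.69 ± 1.88 CPM in untreated (SD, n = 3 each). It was thus lower than miR-149-5p in all 3 groups.

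The miRNAs most like each of the 3 were found by Pearson's r of log2 CPM over the 9 libraries among the 450 other tested miRNAs. These r values describe profiles that share libraries and group structure, and no p is given. For miR-139-5p they were miR-6960-5p (r = 0.95), miR-1843a-3p (0.94) and miR-3473a (0.93), each of which was lowest in the 48 h library 1, as miR-139-5p was. All were scarce. miR-6960-5p stood at 16.4 ± 2.71 CPM at 24 h, 6.63 ± 4.50 CPM at 48 h and 10.1 ± 1.74 CPM in untreated (SD, n = 3 each). miR-3473a stood above it at 24 h only, at 22.8 ± 15.3 CPM at 24 h, 4.25 ± 3.88 CPM at 48 h and 6.28 ± 3.11 CPM in untreated.

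For miR-139-3p the nearest profiles were miR-5099 (r = 0.92), miR-409-3p of the imprinted Dlk1-Dio3 cluster (0.91) and let-7c-5p (0.90). The last, an abundant member of the let-7 family, stood at 140227 ± 19243 CPM at 24 h, 100108 ± 45598 CPM at 48 h and 76211 ± 26800 CPM in untreated (SD, n = 3 each). For miR-149-5p they were miR-191-3p (r = 0.97), miR-3470a (0.92) and miR-122-5p (0.90). miR-191-3p, a passenger arm, stood at 579.5 ± 88.4 CPM at 24 h, 182 ± 100.3 CPM at 48 h and 149 ± 64.6 CPM in untreated. With Spearman's rho in place of r, 1 of the 3 nearest was kept for miR-139-5p, 2 for miR-139-3p and 1 for miR-149-5p.

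**Figure D5:**
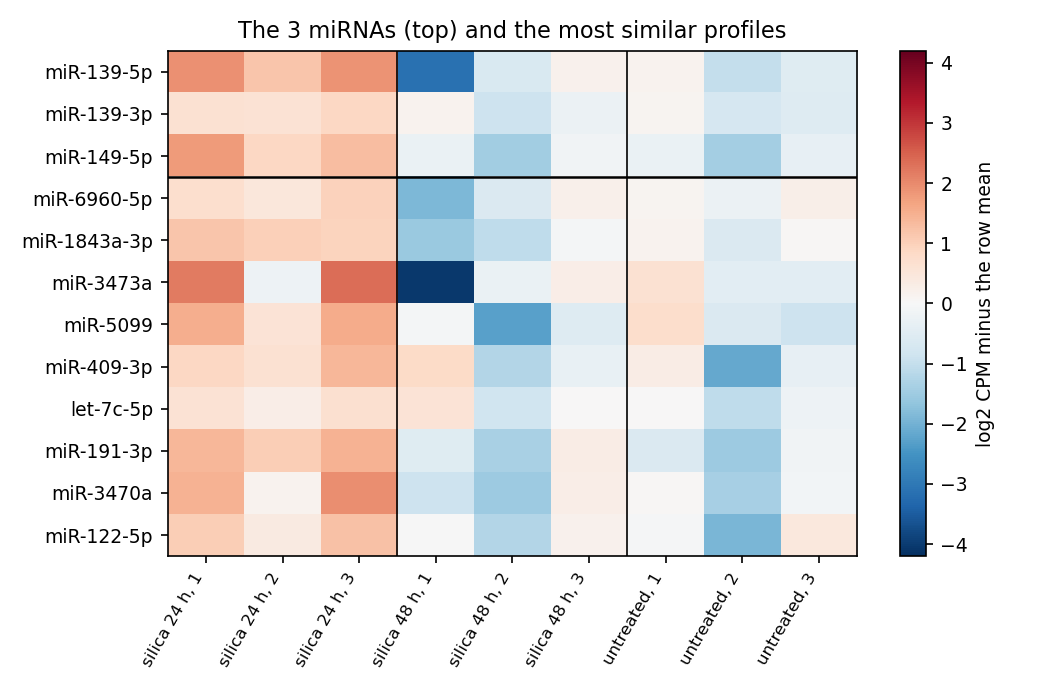
Log2 CPM minus the mean over the 9 libraries (colour) for miR-139-5p, miR-139-3p and miR-149-5p, above the line, and the 3 most similar miRNAs of each, below it; columns are libraries. The 24 h columns are mostly red, and the column of the 48 h library 1 is darkest blue for miR-139-5p and miR-3473a.

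Among 14 miRNAs linked to Toll-like receptor and MyD88 signalling, the pathway that miR-149-5p restrains in macrophages, 13 were listed and 12 tested. Of the 12, 0 passed the test at 24 h against untreated (0% of all 453 did), with 3 fitted higher and 9 lower and a median log2 fold change of -0.20, against -0.07 over all tested miRNAs. The most abundant, miR-146a-5p, a brake on the adaptors IRAK1 and TRAF6, stood at 45483 ± 5706 CPM at 24 h, 49847 ± 20411 CPM at 48 h and 53770 ± 29651 CPM in untreated (SD, n = 3 each). Next came miR-27b-3p, at 32710 ± 8182 CPM at 24 h, 43970 ± 15593 CPM at 48 h and 48193 ± 23626 CPM in untreated. For both of these the 24 h mean was the lowest of the 3, by less than the spread in untreated. At 48 h against untreated 0 of the 12 passed, with 7 fitted higher and 5 lower (median 0.11, against 0.03 over all), and at 48 h against 24 h 0 passed, with 10 higher and 2 lower (median 0.20, against 0.14).

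Markers of sources other than macrophages were set beside these levels, since the medium held serum. The 7 miRNAs of the serum, liver and erythroid list summed to 2401 to 6157 CPM at 24 h, 1495 to 1968 CPM at 48 h and 737 to 2191 CPM in untreated. The 24 h range lay above the other 2, as it did for miR-139-5p, miR-139-3p and miR-149-5p, and the part of this list in their levels was not tested. Of the 6 tested members 5 were fitted higher at 24 h against untreated and 0 passed (median log2 fold change 0.65). All 7 were listed. The 2 most abundant over the 9 libraries were miR-122-5p of liver and miR-451a of erythroid cells. miR-122-5p stood at 1820 ± 515 CPM at 24 h, 817 ± 361 CPM at 48 h and 825 ± 527 CPM in untreated (SD, n = 3 each). miR-451a led the list at 24 h, with 1952 ± 1289 CPM at 24 h, 652 ± 211 CPM at 48 h and 444 ± 259 CPM in untreated. Its log2 fold change at 24 h over untreated was 2.14 ± 0.69 (adjusted p = 0.386 by edgeR), beside 2.08 for miR-139-5p, and it was 1 of the 24 miRNAs with all 24 h libraries above the others. miR-144-3p, another erythroid marker of the list, was near 0, with a mean of 0.57 CPM over the 9 libraries. miR-486a-5p and miR-486b-5p, also of this list, were scarce, with means of 5.12 and 4.65 CPM over the 9 libraries. Their log2 fold changes at 24 h over untreated were -0.13 ± 0.83 and 0.94 ± 1.14.

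The 7 mesenchymal and endothelial markers, all listed, summed to 644 to 1608 CPM at 24 h, 535 to 1053 CPM at 48 h and 434 to 2242 CPM in untreated, ranges that overlapped. At 24 h against untreated 4 of the 6 tested were fitted higher and 0 passed (median 0.65). The 2 most abundant were miR-126a-3p, at 617 ± 272 CPM at 24 h, 461 ± 102 CPM at 48 h and 532 ± 161 CPM in untreated, and miR-199a-3p, at 243 ± 308 CPM at 24 h, 238 ± 298 CPM at 48 h and 521 ± 870 CPM in untreated (SD, n = 3 each). miR-143-3p, named after its values were seen because it was also 1 of the 24, stood at 68.7 ± 24.6 CPM at 24 h, 29.2 ± 6.50 CPM at 48 h and 15.2 ± 9.14 CPM in untreated. The 6 neuron markers summed to 456 to 723 CPM at 24 h, 575 to 750 CPM at 48 h and 514 to 882 CPM in untreated, with 2 of 6 fitted higher at 24 h and 0 passing (median -0.22). The leading ones were miR-128-3p, at 421 ± 74.1 CPM at 24 h, 517 ± 117 CPM at 48 h and 445 ± 172 CPM in untreated, and miR-9-5p, at 78.1 ± 36.1 CPM at 24 h, 83.4 ± 10.8 CPM at 48 h and 100.2 ± 29.8 CPM in untreated (SD, n = 3 each). Of the 6 myeloid markers 1 was fitted higher at 24 h and 0 passed (median -0.35), and miR-21a-5p, next to miR-146a-5p in abundance, stood at 28770 ± 3819 CPM at 24 h, 45370 ± 20722 CPM at 48 h and 39605 ± 13138 CPM in untreated. All levels are shares of the mature reads of a pool of vesicles, in which fewer vesicles that carry a miRNA and fewer copies per vesicle cannot be told apart.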

How the data were processed

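Small RNA was counted in 9 libraries. Per the file headers, the deposited tables give raw read counts per small RNA, which sum to the header's total. The authors also deposited RPM values, named TPM in the file headers, which are the count per 1000000 counted reads. The RPM of the precursor row was recomputed from the counts, which matched that column within 0.005. Bowtie, HTSeq, Trim Galore and mm10 are named in the submitters' processing notes. The sources used here do not say how reads matching several miRNAs were handled. Mature miRNAs not listed in a table were taken as 0.

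The members, lists and rule for named miRNAs were chosen with earlier results of these data known. The rule was the 3 members, miR-149-3p, miRNAs with the same seed, the 3 nearest profiles of each and the 2 most abundant members of a list. The marker lists are myeloid; serum, liver and erythroid; mesenchymal and endothelial; and neuron. The Toll-like receptor and MyD88 list is the fifth. edgeR 4.0.16 (filterByExpr, minimum count 10, TMM factors 0.829 to 1.16) kept 453 mature miRNAs and was fitted over all 9 libraries without a block (6 residual degrees of freedom). Log2 CPM used a prior count of 2. DESeq2 1.42.0, limma-voom 3.58.1, other scalings, no filter, thinning and left-out libraries were alternatives. The code was tested on simulated data. P-values set a difference between groups against the spread between libraries, which may be technical.

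Libraries with the same number deviated together from their group means between silica and untreated. For numbers 1, 2 and 3, r was 0.14, 0.44 and 0.15 at 24 h. At 48 h it was 0.15, 0.64 and 0.31. Libraries with different numbers had r from -0.30 to 0.16 at 24 h and from -0.53 to 0.36 at 48 h, so that some reached the values of a same-number pair. Between the exposures it was -0.07, 0.29 and 0.25, so that the check did not hold for number 1. The labels state no pairing. Chi-square per degree of freedom was 261 to 3147 between libraries of a group, so none were duplicates.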

Additional observations from a re-analysis of the deposited data

Results flagged for a closer look

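Reads of the Rfam mir-139 precursor family, a row outside the mature counts, averaged 233 RPM at 24 h and 123 RPM in untreated. Every 24 h library lay above every untreated one, by a lowest of 173 RPM against a highest of 163 RPM. Such a gap in CPM was found for 47 of the 453 tested mature miRNAs (10.4%), and no share was computed over the precursor rows in RPM. The 48 h library 3, at 185 RPM, lay above the lowest 24 h library. In the 24 h library 2 a predicted miRNA with 10 counts lay within Pde2a, the host gene of Mir139, and did not overlap the hairpin. The untreated library 1 had another predicted miRNA within Pde2a, at a different position and with 15 counts, so such reads were not limited to 24 h. The tables list predicted miRNAs from 10 counts only, so lower counts cannot be seen.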

How the results depend on the processing

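For miR-139-5p, miR-139-3p and miR-149-5p the log2 fold changes at 24 h over untreated and at 48 h over 24 h kept their sign in all 20 alternatives. At 24 h over untreated they ran from 1.86 to 2.38, 0.87 to 1.27 and 1.64 to 2.17, and at 48 h over 24 h from -3.004 to -1.79, -1.15 to -0.76 and -2.20 to -1.61. At 48 h over untreated the values near 0 ran from -0.999 to 0.23, -0.16 to 0.29 and -0.28 to 0.38, and changed sign in 2, 7 and 5 of the 20. The count of 0 called miRNAs at 24 h over untreated became 1 with upper-quartile factors, 1 with only the 2 groups in the fit, 3 with a block on the replicate number, 4 with DESeq2 and 7 without a filter on low counts. At 48 h over untreated it became 1 with DESeq2 and 1 without a filter. At 48 h over 24 h it became 3 with that block, 6 with DESeq2 and 16 without a filter, where miR-139-5p was among the 16, the 1 setting in which a member was called. Leaving out 1 library gave 0 to 1 calls at 24 h over untreated (1 without the 48 h library 1 or 2) and at 48 h over 24 h (1 without the 48 h library 1), and 0 at 48 h over untreated. The shape with all 24 h libraries above the others is easier to meet with fewer libraries. The 24 miRNAs with it became 17 to 32 under 6 alternatives and 40 without the untreated library 2 and the 48 h library 2. Of these, the settings that leave out libraries were chosen after seeing the data. Leaving out 1 library each, also chosen then, gave mean 5p shares of 77.8% to 82.0% at 24 h, 43.9% to 72.0% at 48 h and 65.2% to 67.9% in untreated. The replicate number as a block changed no other call. The cause of these differences was not tested.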
